A study of Mus musculus with 231 samples.

Results

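To describe how blood microRNAs (miRNAs) drifted in control mice, the month 10 libraries of these (Ctrl) mice were compared with the month 1 libraries of the same mice. All Ctrl mice with a library at both times were taken, which gave 6 mice and 12 of the 231 libraries of the series. The 48 libraries of months 2 to 9 and the 6 libraries of month 0 of these mice were used for the course. MiRNA sequencing had been carried out on peripheral blood mononuclear cells (PBMC) drawn before induction (month 0) and at monthly intervals after it, and a miRNA level is given here as CPM, its count scaled to a common library total with TMM factors.

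The mice were C57BL/6 animals given poly(I:C) at 14 mg/kg every other day for 7 doses at an age of 6 to 8 weeks. They served as controls for Cbfb56M/+/Mx1-Cre mice, in which poly(I:C) switches on the Cbfb-MYH11 fusion through a Cre active in interferon-responsive cells. According to the labels the controls were age-matched littermates without the transgene, whereas the methods of the study describe littermates that can carry the uninduced Cbfb56M allele, and the genotype codes of the mice (HW for 3335 and 3340, CW for 3339, 3342, 3346 and 3349) are not explained. Mouse 3349 was female and the other 5 were male. Every mouse had received poly(I:C) before month 1, so time after induction, age and time in the colony increased together and cannot be told apart.

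Mouse 3335 needs separate mention. Titles of the libraries carry running numbers, which go through the mice one after the other. Months 0 to 5 of mouse 3335 and the later months of mouse 3334 of the leukemia arm share an unbroken stretch of these numbers, and the numbers of months 6 to 10 of mouse 3335 follow directly on month 5 of mouse 3334. The labels were followed, but the month 1 and month 10 libraries of mouse 3335 come from different stretches. Its month 10 library also stood apart from the other 5 for 45 of the 472 miRNAs tested (Dixon's criterion for 6 samples), against 2 to 4 for each other month 10 library and 0 to 5 for each month 1 library. MiR-126a-3p was 98.2 CPM in this library, the lowest of the 6 month 10 values. By the labels, mouse 3334 has libraries up to month 6.5 and none at month 10. The month 10 value of mouse 3335 says nothing on its months 0 to 5, which hold its month 1 library. Whether libraries of these mice were exchanged was not tested. Results are therefore given with and without this mouse where its omission changed a call.

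Libraries held 4541843 to 6334849 counts at month 1, 2228562 to 4011242 at month 10 and 1792809 to 7151521 at months 2 to 9. The month 10 total was lower in 6 of 6 mice, by 0.73 on the log2 scale (exact sign-flip test, two-sided, p = 0.03125, the smallest that 6 pairs can give, adjusted p = 0.0625 over 10 tests). The PBMC label was checked against marker miRNAs. The lymphocyte miRNA miR-150-5p and the myeloid miRNA miR-223-3p had means of 35595 and 8853 CPM over the 12 libraries, against 2.70 CPM for the hepatocyte miRNA miR-122-5p. The red cell miRNA miR-451a had a mean of 54317 CPM, so the libraries were not free of red cell RNA. In a bulk sample, fewer cells of a type and less RNA per cell cannot be told apart.

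MiRNAs are cut from hairpin precursors, each of which can give a 5p and a 3p strand, and one strand is loaded into an Argonaute protein. Bases 2 to 8 of the mature strand, the seed, pair with target messenger RNAs, so miRNAs with the same seed form a family. In blood, each cell type carries its own abundant miRNAs, with miR-451a and miR-144 in the red cell lineage, miR-150 in mature lymphocytes and miR-223 in granulocytes and monocytes. MiRBase names are given without the species prefix mmu.

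Mature sequences of the miRNAs that the results turn on are shown 5′ to 3′ with the seed in capitals. They were copied from RefSeq (GRCm38.p6), which had an entry under the same name for 385 of the 472 miRNAs tested. The first 8 are miRNAs that rose, shown for the size of the rise, their abundance or, for miR-126a-3p, the cells they mark, and the next 6 are miRNAs with large or abundant falls.
miR-451a: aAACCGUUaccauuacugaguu
miR-144-5p: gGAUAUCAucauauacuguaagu
miR-144-3p: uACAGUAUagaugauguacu
miR-5121: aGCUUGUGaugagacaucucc
miR-706: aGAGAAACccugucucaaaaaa
miR-3473b: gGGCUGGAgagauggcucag
miR-30a-5p: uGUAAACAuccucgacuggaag
miR-126a-3p: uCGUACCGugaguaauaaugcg
miR-142a-5p: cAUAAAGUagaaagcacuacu
miR-342-3p: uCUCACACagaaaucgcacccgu
miR-27a-5p: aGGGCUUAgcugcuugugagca
miR-29b-3p: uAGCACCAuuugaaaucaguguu
miR-3963: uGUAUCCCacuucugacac
miR-5100: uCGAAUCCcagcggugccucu
The last 10 are members of families in which members with the same seed moved in opposite directions or in which only some members moved.
miR-497a-5p: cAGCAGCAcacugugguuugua
miR-195a-5p: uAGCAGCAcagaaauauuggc
miR-15b-5p: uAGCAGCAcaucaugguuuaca
miR-322-5p: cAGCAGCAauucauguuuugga
miR-25-3p: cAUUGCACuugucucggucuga
miR-363-3p: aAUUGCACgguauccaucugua
miR-32-5p: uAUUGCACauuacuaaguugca
miR-20b-5p: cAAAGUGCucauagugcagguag
miR-106a-5p: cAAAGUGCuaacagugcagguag
miR-17-5p: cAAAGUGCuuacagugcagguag
No 2 miRNAs of the first 14 share a seed. Each printed sequence has 1 exact match on the 21 chromosomes of mm9, except those of miR-29b-3p with 2 and of miR-706 and miR-3473b, whose matches are given with their values.

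Over 9 months the PBMC miRNA profile changed in both directions. Of 472 miRNAs tested, 172 were called (36.4%), 88 of them higher at month 10 (18.6%) and 84 lower (17.8%) (edgeR quasi-likelihood F test with mouse as a block, Benjamini-Hochberg adjusted p under 0.05). Red cell miRNAs, miR-30a and miRNAs of the miR-15 family with miR-497a rose, whereas miR-142a-5p, the lymphocyte miRNAs miR-150 and miR-342-3p, and miR-27a-5p fell. The median log2 change was 0.97 among the miRNAs that rose, -1.05 among those that fell and -0.05 over all miRNAs tested. At least 2-fold changes were found for 41 of the rises and 43 of the falls. The direction was the same in all 6 mice for 69 rises and 63 falls. In 74 of the 472 miRNAs (15.7%) the month 1 and month 10 values did not overlap, and 41 of the 88 rises and 31 of the 84 falls were among these. Without mouse 3335, 185 were called, 156 of the 172 were again called in the same direction, 1 no longer passed the filter on low counts, and none of the others turned its sign or moved by over 1.5 times. Leaving out any other mouse lowered the share called, to 21.9% without mouse 3340, 22.0% without mouse 3346, 23.8% without mouse 3339, 25.4% without mouse 3342 and 26.4% without mouse 3349.

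**Figure D1:**
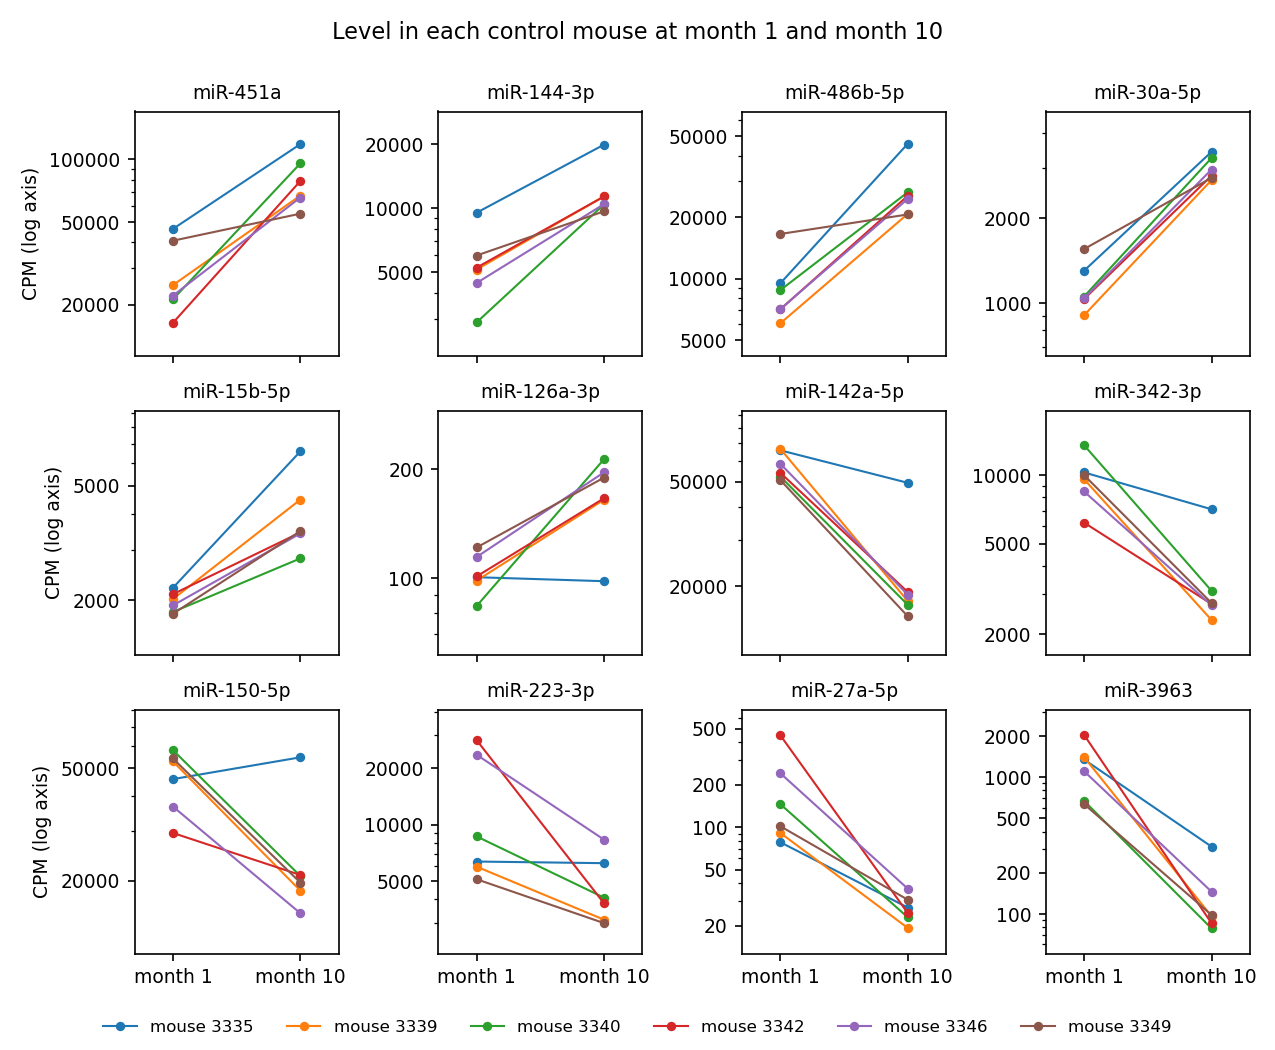
Level of 12 miRNAs in CPM (log axis, a separate range for each miRNA) at month 1 and month 10, with 1 line for each of the 6 Ctrl mice. MiR-451a, miR-144-3p, miR-486b-5p, miR-30a-5p and miR-15b-5p were higher at month 10 in every mouse, whereas mouse 3335 kept a miR-142a-5p level of 49470.1 CPM at month 10 and did not share the fall of miR-150-5p or the rise of miR-126a-3p.

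The erythroid list rose, with 7 of 7 members called higher at month 10 and a median log2 change of 1.62, against 18.6% called higher over all miRNAs tested. MiR-451a, a red cell miRNA whose hairpin is cut by Argonaute 2 and not by Dicer, was between 16379 and 46309 CPM at month 1 (median 23501) and between 54849 and 118389 CPM at month 10 (median 72849). The groups did not overlap, and the log2 change was 1.55 ± 0.25 (SE, n = 6 mice, edgeR adjusted p = 0.00361). MiR-144, whose hairpin lies directly upstream of that of miR-451a (chr11:77886507-77886572 and chr11:77886672-77886743, plus strand, mm9, in no host gene of the GENCODE vM1 annotation), changed with both strands. MiR-144-3p was between 2904 and 9531 CPM at month 1 (median 5204) and between 9678 and 19927 CPM at month 10 (median 10912), with a change of 1.18 ± 0.18 (adjusted p = 0.00263). MiR-144-5p was between 1264 and 2379 CPM at month 1 (median 1922) and between 3366 and 8821 CPM at month 10 (median 5937), with a change of 1.61 ± 0.23 (adjusted p = 0.0024). All 6 mice were higher at month 10 for both strands, and mouse 3335 had the highest level of miR-144-3p at month 10.

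MiR-486 is produced in red cell precursors from hairpins a and b that are near-identical, so the split of its counts between the 2 names is uncertain. MiR-486b-5p was between 6042 and 16566 CPM at month 1 (median 7943) and between 20648 and 45889 CPM at month 10 (median 25056), a change of 1.62 ± 0.26 (adjusted p = 0.00337). The low-abundance 3p strands changed by 2.15 (miR-486a-3p) and 1.97 (miR-486b-3p), and miR-486a-5p changed by 1.66. These 4 names did not overlap between months 1 and 10. Together the 7 members held 30476 to 67785 CPM at month 1 and 88721 to 193395 CPM at month 10. The log2 ratio of miR-451a to miR-23a-3p, a measure of red cell RNA in a blood sample, went from 1.14 ± 0.67 to 2.99 ± 0.54 (SD, n = 6) and was higher in 6 of 6 mice (exact sign-flip p = 0.03125, adjusted p = 0.0625).

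Several miRNAs of white blood cells fell. In the mature lymphocyte list 3 of 4 members were called lower (17.8% of all miRNAs tested were), with a median log2 change of -0.87. MiR-150-5p, which restrains c-Myb in mature B and T cells, was between 29552 and 57986 CPM at month 1 (median 49349) and between 15388 and 54661 CPM at month 10 (median 20287). It was lower at month 10 in 5 of 6 mice, and in mouse 3335 it went from 45792 to 54661 CPM. The log2 change was -0.997 ± 0.26 (adjusted p = 0.0214) and was -1.26 without mouse 3335. The other strand, miR-150-3p, fell by 0.74 ± 0.20. MiR-342-3p, made from an intron of Evl (chr12:109896830-109896928, plus strand, mm9), was between 6199 and 13587 CPM at month 1 (median 9826) and between 2313 and 7099.9 CPM at month 10 (median 2734). It was lower in 6 of 6 mice, with a log2 change of -1.58 ± 0.23 (adjusted p = 0.00249). Its partner strand miR-342-5p had a change of 0.02 ± 0.18 and was not called.

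MiR-142 is expressed across blood cells. Its 5p strand was between 50680.0 and 66643 CPM at month 1 (median 56239) and between 15339 and 49470.1 CPM at month 10 (median 18034), and the groups did not overlap although mouse 3335 lay far above the other 5 at month 10. The log2 change was -1.48 ± 0.22 (adjusted p = 0.0024) and was -1.70 without that mouse. The 3p strand had a change of -0.19 ± 0.18 and was not called. MiR-223-3p, abundant in neutrophils and monocytes, was between 5109 and 28147 CPM at month 1 (median 7496) and between 2982 and 8303 CPM at month 10 (median 3939) and lower in 6 of 6 mice, with overlapping groups and a log2 change of -1.18 ± 0.34 (adjusted p = 0.0262). At month 1 mice 3342 and 3346, whose libraries carry the same G number in their titles, stood at 28147 and 23536 CPM and the other 4 at 8642 CPM or less, and in mouse 3335 the level went from 6349 to 6223 CPM. The change was no longer called without mouse 3339, 3340, 3346 or 3349, and was -0.86 without mouse 3342. MiR-223-5p was not called (-0.45). In the miR-23a cluster, known as a target of PU.1 in myeloid cells, miR-23a-3p, miR-27a-3p and miR-24-2-5p were not called (-0.31, -0.45 and -0.15), whereas miR-23a-5p was called higher (0.64; adjusted p = 0.0818 without mouse 3335).

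MiR-27a-5p, the less abundant strand of miR-27a (chr8:86732571-86732657, plus strand, mm9), showed the second largest fall among miRNAs with a mean of 10 CPM or more. It was between 78.2 and 449 CPM at month 1 (median 123.7) and between 19.3 and 36.6 CPM at month 10 (median 25.7) and lower in 6 of 6 mice, without overlap. The highest values at month 1 were again those of mice 3342 and 3346 (449 and 241 CPM). The log2 change was -2.49 ± 0.34 (adjusted p = 0.00233).

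In the list of miRNAs induced in activated lymphocytes and macrophages, 1 of 12 members was called higher and 3 were called lower (18.6% and 17.8% over all miRNAs tested), with a median log2 change of -0.46. MiR-21a-5p was not called (0.08), nor were miR-155-5p (-0.06) and miR-146a-5p (-0.60). In the linear trend over months 2 to 9, miR-146a-5p and miR-155-5p were called falling (-0.22 and -0.17 log2 per month) and miR-21a-5p was not called (0.04). Of 13 members in that trend, 1 was called rising and 4 falling (24.5% and 23.8% over all miRNAs tested). MiR-146b-5p, which dampens Toll-like receptor signalling, was between 1822 and 5272 CPM at month 1 (median 2325) and between 1034 and 1442 CPM at month 10 (median 1320.2) and fell in 6 of 6 mice, with a log2 change of -1.05 ± 0.20. Mice 3342 and 3346 had the highest month 1 levels of miR-146b-5p and miR-147-5p, with 39.5 and 30.9 CPM of miR-147-5p against 7.76 CPM or less in the other 4. MiR-146a-3p and miR-147-5p, at means below 10 CPM (4.21 and 8.97), were called lower (-1.58 and -2.03). MiR-3473b was the member called higher.

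Of the miRNAs with a mean of 10 CPM or more, miR-5121, miR-706 and miR-3473b rose most. MiR-5121 was between 21.9 and 92.7 CPM at month 1 (median 32.3) and between 190.1 and 509 CPM at month 10 (median 328), a log2 change of 3.22 ± 0.40 (adjusted p = 0.0017). MiR-706 was between 0.322 and 6.46 CPM at month 1 (median 5.14) and between 21.8 and 62.6 CPM at month 10 (median 31.2), a change of 3.08 ± 0.50. MiR-3473b was between 9.65 and 53.01 CPM at month 1 (median 31.1) and between 94.2 and 374 CPM at month 10 (median 211), a change of 2.96 ± 0.46. All 3 were higher in 6 of 6 mice, and month 1 and month 10 did not overlap. On the 21 chromosomes of mm9, the mature sequence of miR-706 has 21349 exact matches and that of miR-3473b has 24805, so the reads counted under these 2 names cannot be assigned to a miRNA hairpin, whereas the sequence of miR-5121 has 1 match. The means of these miRNAs did not change in 1 direction from month to month. The mean of miR-5121 was 41.2 CPM at month 1, 93.2, 14.01 and 11.7 CPM at months 2, 4 and 5, and 352 and 155 CPM at months 8 and 9.

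MiR-466i-5p and miR-1291 also rose in 6 of 6 mice, by 1.83 and 1.60 on the log2 scale. MiR-497a-5p was between 10.3 and 17.1 CPM at month 1 (median 13.2) and between 30.3 and 50.4 CPM at month 10 (median 47.5), a change of 1.75 ± 0.18 with no overlap. Below 10 CPM, miR-6481 and miR-466q were called higher as well (3.56 and 2.39), and they were among the 5 called miRNAs with the smallest p of a rise over months 2 to 9. MiR-6481 was at 0 in at least 1 library of month 1, so its fitted change depends on the prior count.

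The largest fall was that of miR-3963. It was between 636 and 2037 CPM at month 1 (median 1227) and between 78.6 and 311 CPM at month 10 (median 97.5), without overlap, and the log2 change was -3.19 ± 0.33 (adjusted p = 0.00129). MiR-29b-3p, which targets DNA methyltransferase and collagen messages, was between 463 and 1065 CPM at month 1 (median 629) and between 53.8 and 501 CPM at month 10 (median 178) and lower in 6 of 6 mice, a change of -2.05 ± 0.43. The related miR-29a-3p and miR-29c-3p were not called (0.36 and -0.18), and in the 7 members of the miR-29 family 1 other was called, in the upward direction, miR-29b-1-5p (0.86; adjusted p = 0.0662 without mouse 3335). MiR-455-3p fell by 2.32 ± 0.46 and miR-574-3p by 1.71 ± 0.28. In mouse 3335 miR-455-3p went from 21.1 to 22.4 CPM, and it was lower at month 10 in the other 5 mice.

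MiR-3968, miR-3964, miR-5100 and miR-6412 were called lower, with log2 changes of -1.86, -1.54, -1.52 and -1.49, and each was lower in 6 of 6 mice. Among the abundant miRNAs, let-7i-5p changed by 0.41 ± 0.13 (adjusted p = 0.0414, higher in 6 of 6 mice). MiR-5099 changed by -0.94 ± 0.27 and fell from 4.93% ± 1.44 to 2.75% ± 1.04 of all counts (SD, n = 6). The deposited CPM table, made with another counting, lists miR-5099 at 47.3 to 250 CPM in the same 12 libraries, so its level is uncertain.

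**Figure D2:**
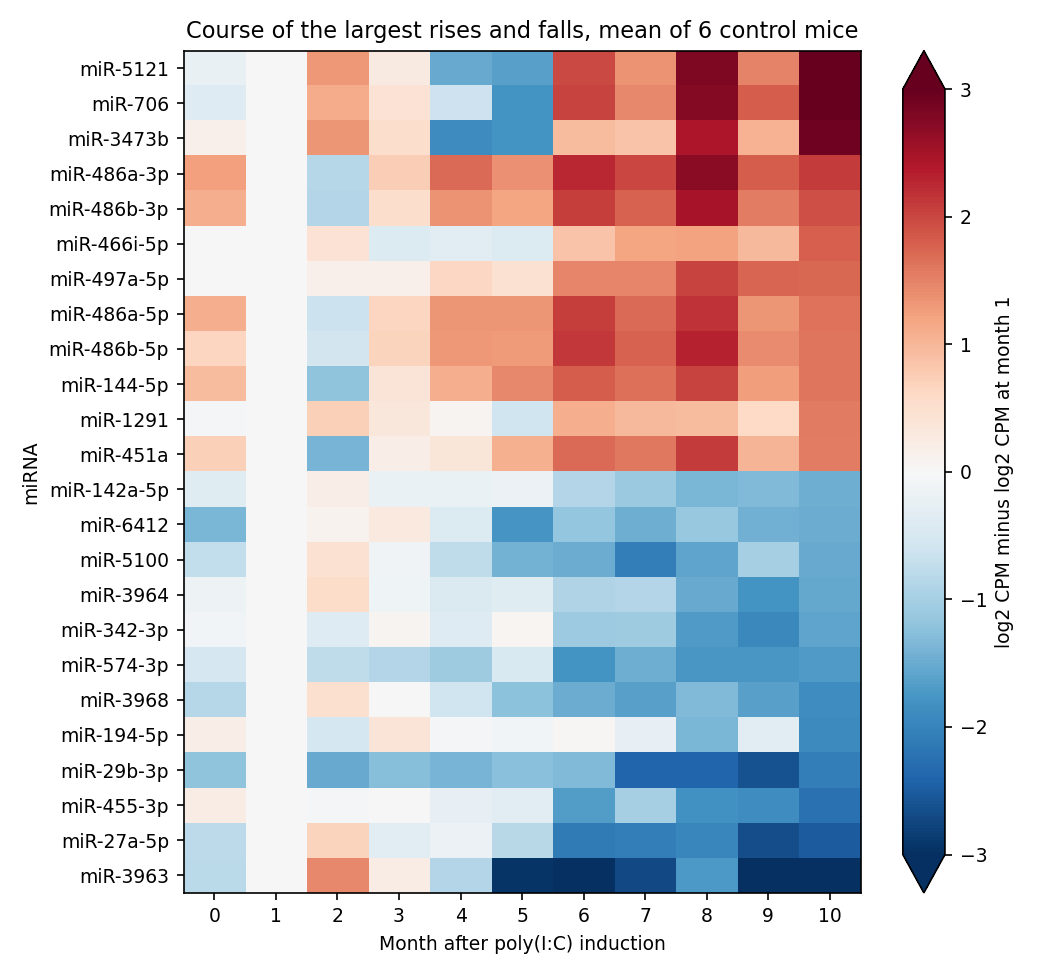
Mean log2 CPM of 6 Ctrl mice at months 0 to 10 minus the mean at month 1 (color, from -3 to 3), for the 12 largest rises and the 12 largest falls at a mean of 10 CPM or more. The fall of miR-142a-5p was small until month 5 (-0.19) and lay between -0.88 and -1.48 from month 6, and miR-451a was above month 1 at month 0 (0.71) and below it at month 2 (-1.40).

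MiRNAs that share a seed did not all move together. Of 38 seeds with at least 2 miRNAs tested, 6 had at least 2 called members, and in 3 of these 6 the called members moved in opposite directions. Over all miRNAs tested, 88 were called higher and 84 lower, so called miRNAs without a common seed would often differ in direction too. Whether seed families depart from this was not tested. In the family with the seed AGCAGCA, which represses cyclins and BCL2, miR-497a-5p, miR-195a-5p and miR-15b-5p rose (1.75, 1.04 and 0.98), whereas miR-322-5p fell (-0.46). MiR-195a-5p was between 73.7 and 109.7 CPM at month 1 (median 104.7) and between 159 and 226 CPM at month 10 (median 212), and miR-15b-5p was between 1793 and 2207 CPM at month 1 (median 1967) and between 2794 and 6589.7 CPM at month 10 (median 3458), both higher in 6 of 6 mice without overlap. MiR-322-5p was between 457 and 701 CPM at month 1 (median 572) and between 368 and 464 CPM at month 10 (median 421) and lower in 6 of 6 mice with overlapping groups. MiR-15a-5p had a change of 0.02 ± 0.14. MiR-16-5p was between 2229 and 43043 CPM at month 1 (median 20339.6) and between 6215 and 40286 CPM at month 10 (median 37074), and its change of 1.04 ± 0.97 was not detectable against this spread between mice.

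The hairpins of miR-497a and miR-195a lie next to each other on chromosome 11 (chr11:70048219-70048302 and chr11:70048544-70048637, plus strand, mm9). That of miR-15b lies in an intron of Smc4 (chr3:68813678-68813775), and that of miR-322 lies on chromosome X (chrX:50407432-50407526, minus strand). Over the miR-15 and miR-16 family, both strands counted, 4 of 9 members were called higher (18.6% over all miRNAs tested) and 0 lower, with a median log2 change of 0.56. The fourth, miR-16-2-3p, changed by 0.56 (adjusted p = 0.0674 without mouse 3335).

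The seed AUUGCAC gave a second case. MiR-25-3p rose (0.53; adjusted p = 0.0764 without mouse 3335), miR-32-5p and miR-363-3p fell (-1.14 and -0.69), and miR-92a-3p and miR-92b-3p were not called (-0.14 and -0.03). MiR-363-3p was between 135.1 and 159.7 CPM at month 1 (median 152) and between 73.8 and 127.8 CPM at month 10 (median 89.3), lower in 6 of 6 mice without overlap. MiR-25 is made from Mcm7 (chr5:138606549-138606632, minus strand), miR-32 from an intron of D730040F13Rik, and miR-363 from the X chromosome. In the third case, the seed UUUCAGU, miR-30a-3p rose (0.81) and miR-30e-3p fell (-0.79).

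With the seed AAAGUGC, which belongs to the growth-promoting miR-17 family, the X-linked members miR-20b-5p and miR-106a-5p fell, and miR-17-5p (-0.21), miR-20a-5p (0.19), miR-93-5p (-0.08) and miR-106b-5p (0.14) were not called. MiR-20b-5p was between 378 and 464 CPM at month 1 (median 443) and between 142 and 310.2 CPM at month 10 (median 168), a change of -1.23 ± 0.17 (adjusted p = 0.0024). MiR-106a-5p was between 112.8 and 160.0 CPM at month 1 (median 151) and between 60.9 and 97.3 CPM at month 10 (median 77.4), a change of -0.85 ± 0.15. Neither overlapped between the months. The printed sequences of miR-106a-5p and miR-17-5p are near-identical outside the seed too, so some of their reads could have been exchanged in counting. Over the 23 members tested of miR-17-92 and its paralogous clusters, 4 rose and 4 fell, about the 18.6% and 17.8% called in each direction over all miRNAs tested. The rises were miR-25-3p and the 3p strands miR-106b-3p (0.93), miR-93-3p (0.77) and miR-18a-3p (0.64). The falls were miR-20b-5p, miR-106a-5p and both strands of miR-363 (miR-363-5p, -1.30), which all belong to the X-linked miR-106a to miR-363 cluster.

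The following grouping by position was chosen after the values were seen. Of 47 miRNAs with their only RefSeq hairpin on chromosome X, 16 were called lower (34%) and 7 higher (14.9%), with a median log2 change of -0.31, against 17.8% and 18.6% over all miRNAs tested. In the cluster of miR-322, miR-503, miR-542 and miR-450, 6 of 10 were called lower, namely miR-322-5p, miR-322-3p (-0.97), miR-542-3p (-0.72), miR-450a-1-3p (-1.27), miR-450b-5p (-0.97) and miR-450b-3p (-1.14). MiR-503-3p was called higher (1.23), and miR-503-5p and miR-542-5p were not called. In the X-linked miR-532 cluster 3 of 8 were called lower, namely miR-362-3p (-0.80), miR-500-3p (-0.71; adjusted p = 0.0567 without mouse 3335) and miR-532-3p (-0.63). MiR-501-5p was called higher (1.005), and miR-362-5p and miR-532-5p were not called (0.02 and -0.47). Mean GC content was 50.1% for miRNAs that rose, 47% for those that fell and 49.3% for those not called, and the correlation of GC content with the log2 change was 0.05 across 385 miRNAs, which are not independent.

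Among hairpins with both strands tested, both were called higher in 10 and both lower in 6, whereas in 2 they moved in opposite directions. In 56 only 1 strand was called and in 45 neither was. Called or not, the log2 changes of both strands had the same sign in 80 of all these hairpins. The shares called over all miRNAs tested were 18.6% higher and 17.8% lower. An excess of agreement between strands over these shares was not tested. Besides miR-144, miR-486a and miR-486b, both strands rose for let-7b, miR-22 (0.64 and 0.50), miR-30a, miR-145a, miR-324 (0.48 and 0.75), miR-505 (1.46 and 0.83) and miR-676 (0.93 and 1.07). MiR-30a-5p was between 906 and 1554 CPM at month 1 (median 1047) and between 2728 and 3436 CPM at month 10 (median 2900.3) without overlap, a change of 1.41 ± 0.16 (adjusted p = 0.00145), the smallest adjusted p among miRNAs with a mean above 1000 CPM. Both strands fell for miR-150, miR-322, miR-363, miR-450b, miR-1955 (-1.13 and -1.29) and miR-3068 (-0.73 and -0.82). In miR-872 the 5p strand fell and the 3p strand rose (-0.83 and 0.54), and in miR-700 the 5p strand rose and the 3p strand fell (0.75 and -0.50).

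**Figure D3:**
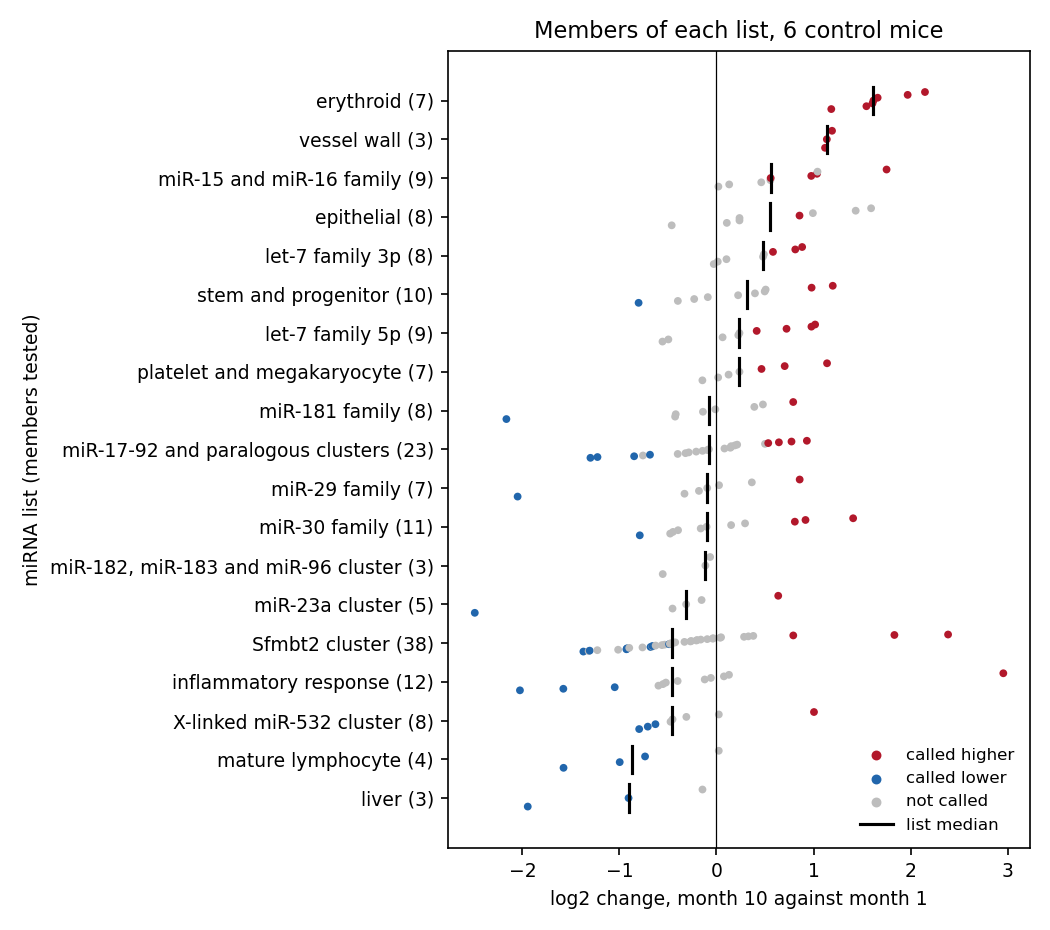
Log2 change from month 1 to month 10 of the members of each list with at least 3 members tested (points, colored by call; n in brackets is the number tested), with the list median as a bar. All 7 erythroid members lie above 1, and 3 of the 4 mature lymphocyte members lie below -0.7.

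Of the platelet miRNAs 3 of 7 were called higher (18.6% over all miRNAs tested) and 0 lower, with a median log2 change of 0.24. MiR-126a-3p, which marks stem cells, platelets and endothelium and is made from Egfl7 (chr2:26446877-26446949, plus strand, mm9), was between 83.8 and 121.7 CPM at month 1 (median 100.96) and between 98.2 and 213 CPM at month 10 (median 178). It was higher in 5 of 6 mice and 100.7 and 98.2 CPM in mouse 3335, with a log2 change of 0.70 ± 0.19 (adjusted p = 0.0222) that was 0.83 without that mouse. MiR-126a-5p had a change of 0.12 ± 0.15 and was not called. MiR-222-3p rose by 0.46 ± 0.14 and miR-199b-3p by 1.14 ± 0.36 (adjusted p = 0.0556 without mouse 3335), whereas miR-221-3p was not called (0.24). In the stem and progenitor list 2 of 10 were called higher, about the share over all miRNAs tested, miR-196b-5p (0.98) and miR-100-5p (1.20), and miR-10a-3p was called lower (-0.80). The abundant members miR-10a-5p, miR-99a-5p and miR-125a-5p were not called (-0.23, 0.40 and 0.50).

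Lists of tissues other than blood were measured as a check of the samples. Over all miRNAs tested 18.6% were called higher and 17.8% lower. The vessel wall list had 3 of 3 called higher, namely miR-143-3p (1.12 ± 0.28), miR-145a-5p (1.14 ± 0.32) and miR-145a-3p (1.19 ± 0.30), and its sum went from 243 to 589 CPM at month 1 to 438 to 1113 CPM at month 10. Of the liver list 2 of 3 were called lower, miR-192-5p (-0.91) and miR-194-5p (-1.94; adjusted p = 0.0849 without mouse 3335), while the hepatocyte miRNA miR-122-5p lay between 0.947 and 4.65 CPM in all 12 libraries. Of the epithelial list 1 of 8 was called higher, miR-200c-3p (0.86), and miR-200b-3p and miR-203-3p were not called (1.43 and 0.11). Neither tested member of the muscle list was called at month 10 (-0.45 for miR-1a-3p and -0.29 for miR-499-5p), and in 1 month 10 library miR-1a-3p was 768 CPM. In the linear trend over months 2 to 9, however, 5 of 5 muscle members (median 0.39 log2 per month) and 4 of 4 vessel wall members were called rising. In that trend 2 of 4 liver members and 1 of 10 epithelial members were called falling and 0 rising. Over all miRNAs tested, 24.5% were called rising and 23.8% falling. The summed level of these lists was higher at month 10 in 5 of 6 mice (3598 ± 606 and 5232 ± 2685 CPM, SD, exact sign-flip p = 0.09375, adjusted p = 0.156). Over months 2 to 9 the slope of this sum was above 0 in 3 of 6 mice, with a mean of 4.97 CPM per month. At month 9 the sum was 15649 CPM in mouse 3340 and 4996 CPM in mouse 3335, the next highest. The part of these lists in the other results was not tested.

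The let-7 family restrains growth in differentiated cells. Of 9 mature 5p strands 4 were called higher and 0 lower, where 18.6% of all miRNAs tested were called higher and 17.8% lower. Those called were let-7e-5p (1.02), let-7c-5p (0.98), let-7b-5p (0.72) and let-7i-5p. Let-7a-5p, let-7d-5p, let-7f-5p, let-7g-5p and the related miR-98-5p were not called, and without mouse 3335 let-7g-5p was called lower (-0.73, adjusted p = 0.00683). The 5p strands differ by few bases, and let-7f-5p was between 1994 and 75500.2 CPM at month 1 (median 57050.3) and between 4886 and 73621 CPM at month 10 (median 37714), and how counts were split between them was not tested. Of the 3p strands, which share less sequence, 3 of 8 were called higher (18.6% over all miRNAs tested), let-7b-3p (0.81), let-7d-3p (0.58) and let-7f-2-3p (0.88), while let-7i-3p and let-7a-1-3p were not (0.49 and 0.48). The same 18.6% applies to the miR-30 family, in which 3 of 11 were called higher, miR-30a-5p, miR-30a-3p and miR-30c-2-3p (0.92; adjusted p = 0.0676 without mouse 3335), and miR-30e-3p was called lower. The more abundant miR-30e-5p, miR-30d-5p and miR-30b-5p were not called (-0.10, 0.15 and -0.48).

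For the remaining lists, the shares over all miRNAs tested were again 18.6% called higher and 17.8% called lower. The miR-181 family had 1 of 8 called higher (miR-181c-3p, 0.79) and 1 called lower (miR-181b-1-3p, -2.17, at a mean of 2.30 CPM and with a library at 0). Its abundant members miR-181a-5p, miR-181c-5p and miR-181d-5p were not called (-0.01, 0.48 and 0.39). The p53-induced miR-34a-5p was called higher (0.53 ± 0.14) and miR-34c-5p was not (0.49). No member of the miR-182, miR-183 and miR-96 cluster was called (miR-182-5p, -0.55; miR-183-5p, -0.11; miR-96-5p, -0.07). The maternally expressed Dlk1-Dio3 cluster had 1 member tested, miR-379-5p, which was called higher (1.07). The repetitive Sfmbt2 cluster, whose members are near-identical and whose counts are therefore uncertain, had 8 of 38 members called lower and 3 called higher, with a median of -0.46, and the share called lower was near the 17.8% over all miRNAs tested. Among these were miR-467e-5p (-0.66), miR-467c-5p (-0.49), miR-466g (-0.93) and miR-466n-3p (-0.68), which fell, and miR-669c-5p (0.79), miR-466i-5p and miR-466q, which rose. MiR-466d-3p was not called (-0.33).

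Among the miRNAs named here, leaving out mouse 3335 ended 10 of the calls and added 6. Without it, miR-181c-5p (0.58), miR-34c-5p (0.78) and miR-200b-3p (1.84) were called higher, and let-7g-5p, miR-30b-5p (-0.58) and miR-532-5p (-0.67) were called lower. MiR-181b-1-3p did not pass the filter on low counts without this mouse, and miR-467a-3p of the Sfmbt2 cluster (-1.31) was no longer called (adjusted p = 0.0642).

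The course between both ends was followed by testing each month against month 1. No miRNA of 468 was called at month 2. At months 3, 4 and 5 the calls were 18 of 463 (3.89%), 49 of 475 (10.3%) and 39 of 486 (8.02%). They were 53 of 471 (11.3%) and 94 of 477 (19.7%) at months 6 and 7. At month 8, 62 of 480 were higher and 69 lower (27.3% together), and at month 9, 74 of 483 were higher and 63 lower (28.4%). At month 2, 85 miRNAs had an unadjusted p under 0.05 in edgeR and DESeq2 called 26. Month 0 differed from month 1 in 0 of 480 miRNAs, with 38 at an unadjusted p under 0.05 and 5 called by DESeq2. All of these comparisons share the month 1 libraries, so the counts are not independent of each other.

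**Figure D4:**
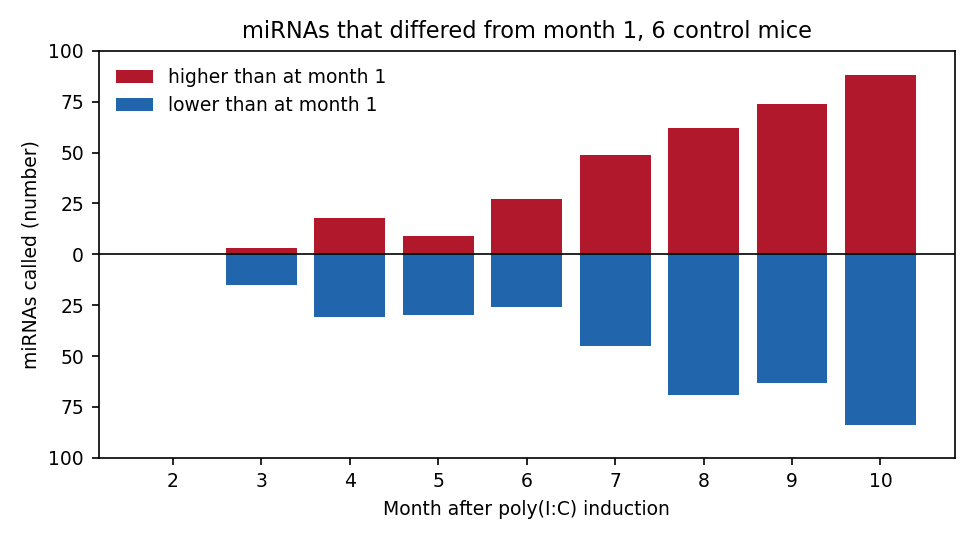
Number of miRNAs called higher (above 0) or lower (below 0) than at month 1 at months 2 to 10 in 6 Ctrl mice (edgeR, adjusted p under 0.05). The number went from 0 at month 2 to 88 higher and 84 lower at month 10, with 9 higher and 30 lower at month 5.

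The distance of a library from month 1 of the same mouse was also taken as the median absolute log2 difference over 328 miRNAs at 10 CPM or more. The median mouse lay between 0.28 and 0.44 at months 2 to 5 and between 0.53 and 0.63 at months 6 to 10. Between 2 mice at month 1 this distance was 0.18 to 0.45 (median 0.32, 15 pairs). Thus up to month 5 a typical mouse differed from its own month 1 library about as much as from another mouse. From month 6 it differed by more than any pair of mice at month 1. Total counts and the ratio of miR-451a to miR-23a-3p also differed between month 1 and month 10, and their part in this distance was not tested. The mean of miR-142a-5p was 57974, 50919, 33172 and 22803 CPM at months 1, 5, 6 and 10. That of miR-27a-5p was 184, 97.4 and 37.8 CPM at months 1, 5 and 6. MiR-451a took another course, with 63949, 28602 and 10610.4 CPM at months 0, 1 and 2 and 135057 and 55684 CPM at months 8 and 9.

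A linear trend over months 2 to 9 was fitted to 48 libraries that the month 10 against month 1 contrast does not use, from the same mice. Repeated libraries of a mouse entered it as separate observations around a common slope. Its p-values therefore do not measure the spread of slopes between mice. Of 560 miRNAs tested, 270 were called (48.2%), with 24.5% of all rising and 23.8% falling. Rising miRNAs made up 50.7% of these calls and 64.6% of 285 calls with raw library sizes in place of TMM, so the split between directions depends on the scaling. Of the 88 miRNAs higher at month 10, 82 had a rising slope and 62 were called rising, which was 70.5% of the 88 and 45.3% of the rising calls. Of the 84 lower at month 10, 76 had a falling slope and 59 were called falling, 70.2% of the 84 and 44.4% of the falling calls. None of the 172 was called in the opposite direction.

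The 5 with the smallest trend p among the rises called in both were miR-497a-5p (0.29 ± 0.03 log2 per month, adjusted p = 8.68e-11), miR-195a-5p (0.23 ± 0.03), miR-466q (0.54 ± 0.07), miR-328-3p (0.17 ± 0.03) and miR-6481 (0.47 ± 0.07). MiR-328-3p changed by 0.64 ± 0.22 between months 1 and 10. Among the falls they were miR-27a-5p (-0.47 ± 0.04, adjusted p = 1.46e-13), miR-3963 (-0.57 ± 0.06), miR-3964 (-0.31 ± 0.04), miR-142a-5p (-0.25 ± 0.03) and miR-30e-3p (-0.13 ± 0.02). Slopes were called rising for 7 of 7 erythroid miRNAs (median 0.34 log2 per month) and falling for 4 of 4 mature lymphocyte miRNAs (median -0.23). Over all miRNAs tested, 24.5% were called rising and 23.8% falling. Some end-point changes went with a slope that was not called, such as miR-194-5p (-0.04 ± 0.09, adjusted p = 0.761), let-7i-5p (0.01 ± 0.02, 0.797) and miR-1291 (0.09 ± 0.05, 0.161). The Sfmbt2 cluster had 16 of 42 rising over months 2 to 9 and 0 falling, against the same 24.5% and 23.8%. At month 10, 3 of its 38 tested members were called higher and 8 lower, and the share called lower was near the 17.8% over all miRNAs tested. Its median log2 change at month 10 was -0.46 and its median slope 0.09 log2 per month. The counts of this cluster are uncertain, and the difference between slope and end point was not tested.

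**Figure D5:**
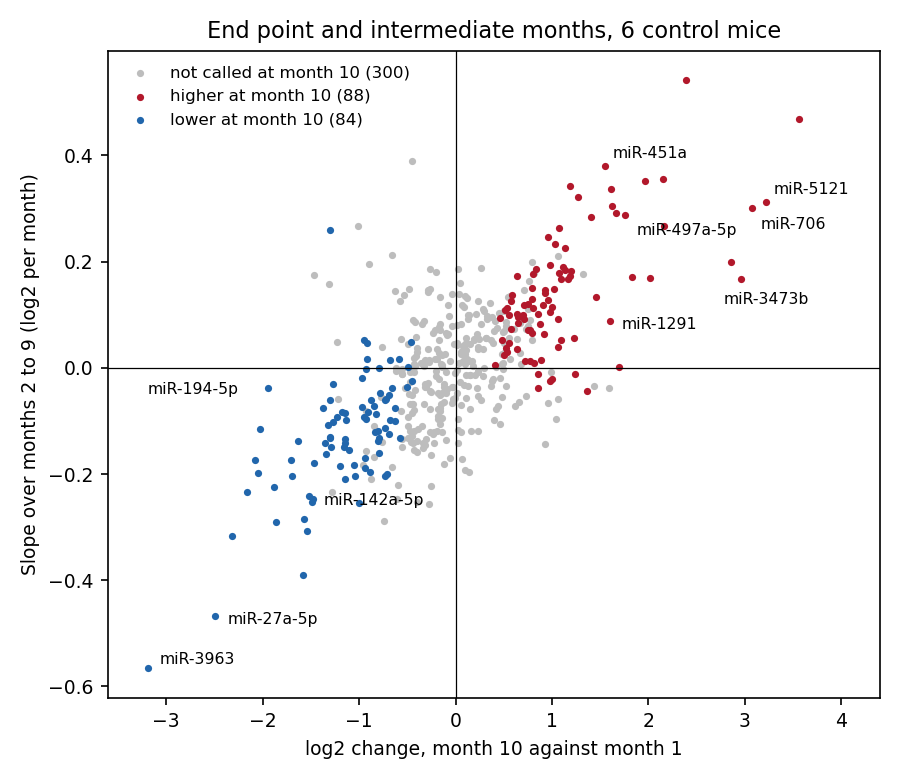
Log2 change from month 1 to month 10 (horizontal) against the slope over months 2 to 9 in log2 per month (vertical) for the 472 miRNAs tested at month 10, colored by call at month 10. MiR-27a-5p and miR-3963 lie at the lower left with slopes of -0.47 and -0.57, and of the 88 red points 82 lie above a slope of 0.

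Mouse 3350, a female control labelled WT with libraries up to month 9, did not enter the fits described so far. Its month 9 library differed from its month 1 library in the same direction for 85 of the 88 rises and 78 of the 84 falls, whereas 51.7% and 48.3% of all miRNAs tested moved up and down in this mouse. This is 1 animal and was not tested.

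Measures that moved with the months were set beside the calls. Total counts and the red cell ratio differed between month 1 and month 10 in every mouse. The ratio also rose over months 2 to 9, by 0.36 log2 per month (higher slope than 0 in 6 of 6 mice, exact sign-flip p = 0.03125, adjusted p = 0.0625). Within the 12 libraries, the ratio and the month correlated at r = 0.95 after centering by mouse, so a fit with the ratio as a covariate cannot separate them and called 0 of 472, with 38 at an unadjusted p under 0.05. The log2 total count gave r = -0.89 and likewise 0 calls, with 96 at an unadjusted p under 0.05. Over months 2 to 9, where these correlations were 0.66 and -0.33, the trend was called for 200 of 560 miRNAs with the ratio as a covariate and for 249 with the total. Counts thinned to the smallest library (2228562) gave 151 calls of 385 tested, and 161 of 464 were called when the 7 erythroid miRNAs were left out before scaling.

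The labels give each library a G number, which they do not explain, and the training libraries had been spread over randomized preparation batches. Month 1 and month 10 libraries carried the same G number in 1 mouse (3339). Across mice, the libraries of G1 (1 at month 1, 3 at month 10) differed in the direction of the call for 171 of the 172 miRNAs, those of G5 (2 and 1) for 170 and those of G6 (2 and 1) for 163. These libraries were part of the fit that chose the 172, so the agreement was largely fixed in advance. It is therefore no test of the G number. With all 76 Ctrl libraries in 1 fit, 220 of 596 miRNAs were called for month 10 against month 1, and 208 with the G number as a term.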

How the data were processed

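Small RNA libraries (TruSeq, selected for 17 to 35 nucleotides) had been made from 280 ng of PBMC RNA and sequenced on an Illumina HiSeq. The table used here holds raw mature miRNA counts deposited by the authors, written by mirTOP; its settings and miRBase release are not given in the sources used here. The authors also deposited a normalized CPM table, a signal scaled by edgeR's TMM after Bowtie alignment to mm9, used only as an alternative. The reads behind it were recovered, with 100% of 124694 values whole within 0.01. The submitters' processing notes name GRCm38, and the validation table was not used here.

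Groups and mouse numbers came from the labels. MiRNAs passing edgeR's filterByExpr in the 12 libraries (472 of 1863) were tested with edgeR 4.0.16 (R 4.3.3), TMM scaling and the quasi-likelihood F test with month and mouse as terms, and p-values were Benjamini-Hochberg adjusted over all miRNAs tested, with 0.05 as threshold. Fold changes are on the log2 scale with a standard error (SE). CPM values use 1 TMM scaling over all Ctrl libraries, also for the course. The trend used month as a number over 48 libraries of months 2 to 9, with mouse as a term. DESeq2 1.42.0 and limma 3.58.1 served as alternatives. Scripts were tested on simulated data. The pairing is by animal, as the labels give it. Deviations from the group means of a mouse's 2 libraries correlated at -0.14 to 0.26. In the paired contrasts with month 1, p-values measure the spread of the change between these 6 mice. Libraries of a pair can also differ in G number and total count, which the mouse term does not remove. The trend has a common slope for all mice. Its p-values measure the scatter of the 48 libraries around that slope and not the spread of slopes between mice.

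Named miRNAs were those with a mean of 10 CPM or more and the 12 largest called rises and falls, the 5 most abundant called, the 5 strongest trends in each direction among miRNAs called in both, list members, and miR-126a. Other miRNAs named, in seed families, hairpins and clusters, were chosen after their values were seen. The members and lists were chosen with earlier results of these data known. Intervals and floors were not drawn, since each value has 6 mice behind it.

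Sequences and cluster positions came from RefSeq (GRCm38.p6), printed coordinates from GENCODE vM1 (mm9), and exact sequence matches from the 21 chromosomes of mm9. Alternatives covered the block, scaling, filter, tool, depth, G number and red cell ratio.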

Additional observations from a re-analysis of the deposited data

Results flagged for a closer look

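Within each month, the highest or lowest of the 6 mice was compared with the next mouse, and it was set down here where the gap was over 0.625 of the whole range (Dixon's criterion for 6 values). This occurred in 35 of 342 groups of named values (10.2%), where chance gives about 1 in 20, and 20 of the 35 were the month 10 library of mouse 3335. All values but the last are log2 CPM.

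In mouse 3335 at month 10, several miRNAs that were not called or fell in the other mice stood above them, with 15.60 for let-7g-5p (next 14.79), 15.59 for miR-142a-5p (next 14.21), 15.74 for miR-150-5p (next 14.36), 9.43 for miR-192-5p (next 8.45), 6.25 for miR-3068-3p (next 5.72), 12.52 for miR-30b-5p (next 11.86), 9.52 for miR-30e-3p (next 8.49), 12.79 for miR-342-3p (next 11.60), 8.43 for miR-362-3p (next 6.75), 4.52 for miR-455-3p (next 2.42) and 9.53 for miR-532-5p (next 8.69). MiRNAs of the red cell lineage and others also stood highest, with 14.28 for miR-144-3p (next 13.47), 12.08 for miR-15a-5p (next 11.50), 7.24 for miR-16-2-3p (next 6.45), 12.74 for miR-25-3p (next 11.89), 15.49 for miR-486b-5p (next 14.70) and 13.87 for miR-93-5p (next 13.05). Lowest in this library were 6.62 for miR-126a-3p (next 7.37), 8.67 for miR-143-3p (next 9.66) and 7.86 for miR-503-5p (next 8.76). Mouse 3335 also had the highest miR-144-3p of the 6 mice at month 1.

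In other month 10 libraries the values that stood apart were 10.60 for let-7c-5p in mouse 3342 (next 12.001), 10.14 for miR-181a-5p in mouse 3339 (next 11.95), 9.02 for miR-194-5p in mouse 3339 (next 6.89), 10.65 for miR-200c-3p in mouse 3346 (next 9.65), 4.39 for miR-467a-3p in mouse 3340 (next 2.12), 4.94 for miR-497a-5p in mouse 3346 (next 5.53) and 5.26 for miR-501-5p in mouse 3349 (next 4.67). At month 1 they were 2.85 for miR-145a-3p in mouse 3349 (next 1.70), -0.16 for miR-466q in mouse 3340 (next 1.20), 2.20 for miR-499-5p in mouse 3349 (next 2.74), 2.60 for miR-505-5p in mouse 3339 (next 2.13), 6.49 for miR-669c-5p in mouse 3349 (next 6.01), 0.64 for miR-676-5p in mouse 3340 (next 1.69) and -0.37 for miR-706 in mouse 3346 (next 2.06). The summed level of the lists of tissues other than blood was 10433 CPM in mouse 3346 at month 10 (next 5404).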

How the results depend on the processing

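Values are the percent of tested miRNAs called. For month 10 against month 1 (36.4%) the other settings gave 26.8% to 42.5%, with 186 calls without the replicate block, 167 to 173 with other scalings, 175 with DESeq2, 220 with all Ctrl libraries in 1 fit (208 with the G number, 160 with the red cell ratio), 211 in the deposited CPM, 198 in recovered reads, 151 in thinned counts and 161 without the erythroid miRNAs. Without a filter on low counts, 182 of 1568 were called. It was 0% with the mouse block and either the red cell ratio or the log2 total count as a covariate, both of which follow the month in the 12 libraries. Leaving out 1 mouse gave 21.9% to 38.8%. For the trend (48.2%) the number of calls was 200 to 318 under the alternatives, 272 of them without the replicate block, and leaving out 1 mouse gave 40.1% to 47.9%.

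Early months depended more on the setting. Without the replicate block, 3.21% were called at month 2 and 18.7% at month 6. DESeq2 called 5.56% at month 2, 13.4% at month 3 and 17.6% at month 6, and raw library sizes gave 6.48% at month 3. The share of higher calls was 16.7% at month 3, 56.5% with DESeq2 and 6.67% with raw library sizes, and at month 9 it was 54% and 72.1% with raw library sizes, which moved the median of all miRNAs there from -0.02 to 0.20 on the log2 scale.

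No named miRNA called in the main or the other fit turned its sign with other size factors, raw library sizes or DESeq2. Sign changes of miRNAs called in neither fit were not listed. With the block and the red cell ratio, the log2 change became -0.015 for miR-143-3p, -0.10 for miR-145a-3p, -0.67 for miR-145a-5p, 1.64 for miR-194-5p, -0.27 for miR-199b-3p, 0.15 for miR-223-3p, 0.047 for miR-322-3p, 0.051 for miR-322-5p, 0.16 for miR-450b-5p and -0.29 for miR-451a, which is itself a part of the ratio. With the log2 total count, miR-194-5p was 0.052. With the ratio over all Ctrl libraries, miR-106b-5p was -0.52 and miR-25-3p was -0.031. MiR-92a-3p was 0.40 in the deposited CPM with either pseudocount and 0.45 in the recovered reads. Slopes with the ratio were -0.0351 for miR-106b-5p, -0.0355 for miR-15a-5p and -0.0057 for miR-25-3p. In the deposited CPM they were 0.10 for miR-16-5p, -0.14 for miR-181a-5p and 0.037 for miR-5100, and in the recovered reads -0.14 for miR-181a-5p and 0.038 for miR-5100. Apart from the covariates that follow the month, the causes were not tested.

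With 6 mice and 2228562 or more counts per library, miRNAs below 10 CPM rest on few counts, and abundant ones are limited by the spread between mice. The alternatives with recovered reads, thinned counts, the log2 total, the erythroid list left out, the ratio over all Ctrl libraries or months 2 to 9, and DESeq2 by month were chosen after seeing the data.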
